A study of Mus musculus with 24 samples.

Results

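The enzymes described are 9 listed genes of amino acid catabolism and the urea cycle: Aspa, Gpt, Got1, Otc, Cps1, Arg2, Prodh, Ido1 and Oat. They were chosen by symbol. Of the 9, 8 were measured among 17811 gene identifiers, and all 8 passed the filter on low counts, which 9328 identifiers passed. Oat was not analysed here.

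The libraries came from the jejunal epithelium of 4 wild-type mice, male C57BL/6 aged 10 weeks on regular chow, with no treatment, so every group shares genotype, sex, age and diet. Cells were released with EDTA, labelled with antibodies to CD73 and CD26, and sorted by flow cytometry (FACS) into 6 zones of the villus, the projection of the gut wall through which food is taken up. The zones run from V1 (most bottom) through V2, V3, V4 and V5 to V6 (tip). A bulk library was made from each zone of each animal, which gives 24 libraries in 6 groups of 4. A zone is what the antibody stain defined and not a measured distance.

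In the small intestine, absorbed and circulating amino acids are broken down as fuel, and the epithelium releases alanine, citrulline and ornithine to the blood. Transaminases pass the amino group of alanine or aspartate to 2-oxoglutarate, which gives glutamate. Mitochondrial Cps1 makes carbamoyl phosphate from ammonia, and Otc joins it to ornithine to give citrulline, which leaves the gut for the kidney. Arginase and proline breakdown feed the same ornithine and glutamate pools, and Ido1 opens the kynurenine path of tryptophan.

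From the bottom of the villus upward, Gpt, Aspa and Got1 rose, Cps1 and Ido1 fell, and the trends of Otc, Arg2 and Prodh did not pass the test in the model of zones alone. With mouse added to the model, Prodh fell (slope -0.086, adjusted p = 0.0174), and Arg2 was higher in V4 and V6 than in V1. The V6 minus V1 difference of Arg2 was 0.96 in mouse 2 and 0.13 to 0.35 in the other mice, on the log2 scale. No rise passed the test above the middle of the villus. Gpt was 3.39-fold, Aspa 4.63-fold and Got1 1.67-fold higher in V4 than in V1. Ido1 was 5.94-fold lower in V4 than in V1, and Cps1 was 2.69-fold lower in V6 than in V1. Between V4 and V6 no enzyme passed the test in the model of zones alone, and Aspa was lower in V6 once mouse was added to the model.

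Values are in CPM, counts of unique molecular identifiers (UMIs, each standing for 1 RNA molecule) relative to the size of the library, which is corrected by TMM, a factor that centres most genes between libraries. They are read from the 3-prime end, so they compare zones of 1 gene and not the amounts of different genes. Slopes are log2 change per zone from V1 to V6 with zones taken as equally spaced, and tests are edgeR quasi-likelihood tests with Benjamini-Hochberg adjustment over the 9328 genes, called at an adjusted p under 0.05. The libraries held 806541 to 2266261 UMIs, with a median of 1502948.5. Summed levels of 9 enterocyte markers averaged 15688 CPM in V1 and 82707 CPM in V6, and 8 of the 9 rose. Those of 11 goblet cell markers, the mucus-secreting cells, averaged 74087 ± 25119 CPM in V1, 37375 ± 14407 CPM in V2 and 11610 to 11881 CPM in V3 to V6 (SD, n = 4), and 11 of 11 fell. Zone means of the summed Paneth cell markers lay between 9717 and 23650 CPM, with 0 of 9 called. None of these lists had a marker at 0 in every library. In bulk samples, fewer cells of a type and less RNA per cell cannot be told apart, and the part of goblet cells in the trends below can only be read from the values given beside them.

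**Figure D1:**
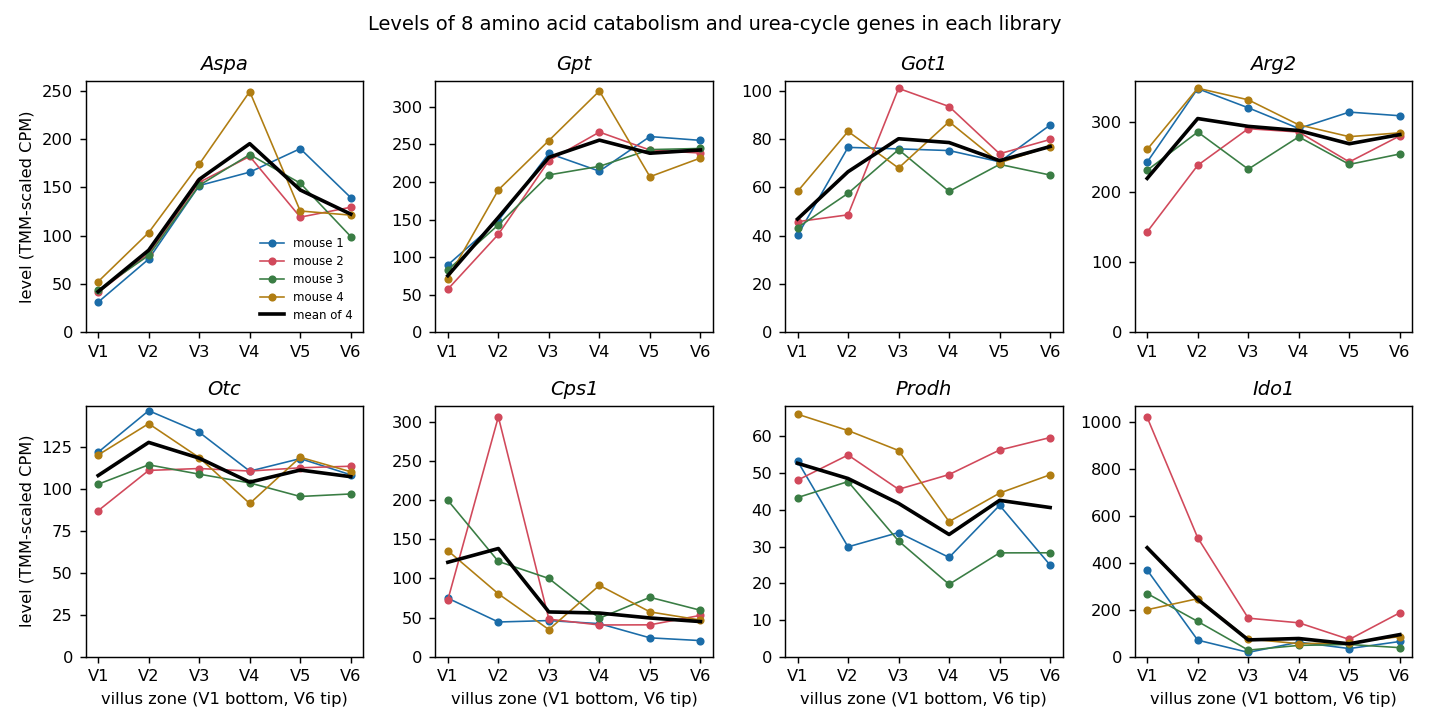
Level of each of the 8 enzymes (TMM-scaled CPM, vertical axes from 0) in zones V1 to V6, with a thin line and points for each of 4 mice and a thick line for their mean. Aspa, Gpt, Got1 and Arg2 have their lowest point in V1 in 4 of 4 mice, while the Ido1 line of mouse 2 starts at 1018.5 CPM and lies above the other mice in every zone.

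Gpt is the cytosolic alanine transaminase, which interconverts alanine and pyruvate. The gene lies on chromosome 15 at 76695716 to 76699686, plus strand (GRCm38). It measured 89.6, 57.2, 82.9 and 71.3 CPM in V1 of mice 1 to 4. In V2 it measured 148.7, 130.3, 143.0 and 189.5 CPM, and in V3 238.1, 228.4, 209.5 and 255.3 CPM. It then reached 214.5, 266.5, 220.9 and 321.3 CPM in V4. In each mouse every zone above V1 was higher than V1, and the ranges of V1, V2 and V3 do not overlap. The values of V5 were 260.6, 242.6, 243.2 and 207.1 CPM and those of V6 255.5, 238.6, 244.7 and 232.0 CPM. From V3 on, the ranges overlap. The slope was 0.30 ± 0.026 (SE; adjusted p = 4.32e-09), with 4 of 4 mice rising by 0.26 to 0.37 per zone. Zone accounted for 92.9% of the variance of its log2 level and mouse for 1.02%.

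Aspa is aspartoacylase, which splits N-acetylaspartate into aspartate and acetate. It lies on chromosome 11 at 73304992 to 73329596, minus strand (GRCm38), and had the most negative curvature of the 8. It measured 31.1, 41.2, 43.3 and 52.3 CPM in V1, and 75.6, 81.2, 79.4 and 103.1 CPM in V2 of mice 1 to 4. In V3 it measured 151.8, 155.1, 152.0 and 173.9 CPM, and in V4 165.7, 182.0, 183.9 and 249.2 CPM. The ranges of V1, V2 and V3 do not overlap, and V4 was above V3 in 4 of 4 mice. Past the middle it measured 190.0, 119.1, 154.3 and 125.5 CPM in V5, and 139.3, 129.4, 99.0 and 121.2 CPM in V6. V6 lay below V4 in 4 of 4 mice and the ranges of those zones do not overlap, while all V6 libraries stayed above all V1 libraries. The highest zone was V4 in mice 2, 3 and 4 and V5 in mouse 1. The mean of V4 was 195.2 ± 36.9 CPM (SD, n = 4), that of V1 42.0 ± 8.71 and that of V6 122.2 ± 17.1.

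Aspa had a slope of 0.30 ± 0.030 (adjusted p = 3.9e-08), and a straight line describes it poorly. Over V1 to V4 its log2 difference was 2.21 ± 0.18 (adjusted p = 1.26e-08). Over V4 to V6 it was -0.67 ± 0.17, with an adjusted p of 0.0947 in the model of zones alone and 0.00668 (difference -0.66 ± 0.14) with mouse as a block, a term that removes differences between mice. Over V3 to V6 alone, with the block, its slope was -0.15 (adjusted p = 0.0293), the opposite sign of its slope over the whole villus.

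Promoter windows (GRCm38.p6, 250 bases before to 50 after a start in RefSeq) were at hand for 4 of the 8 genes. The pair below sets the window of Aspa, which changed 4.63-fold from V1 to V4, beside that of Otc, whose level passed no test between zones under TMM scaling with all 4 mice. The Aspa window lies at chr11:73324588-73324887 on the minus strand and the Otc window at chrX:10252055-10252354 on the plus strand, both written 5′ to 3′ along the gene. The Aspa window lies inside the gene span given above, whose upstream end is 73329596, so its start is not that of the span. The Prodh window, at chr16:18089141-18089440, also lies inside its span, whose upstream end is 18090203. Capitals mark matches to the searched motifs.
Aspa: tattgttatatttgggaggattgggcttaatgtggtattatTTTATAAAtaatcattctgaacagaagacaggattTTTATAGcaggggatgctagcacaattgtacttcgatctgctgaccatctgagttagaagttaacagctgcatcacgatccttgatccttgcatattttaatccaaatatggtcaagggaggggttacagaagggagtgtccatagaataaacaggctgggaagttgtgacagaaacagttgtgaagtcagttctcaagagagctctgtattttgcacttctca
Otc: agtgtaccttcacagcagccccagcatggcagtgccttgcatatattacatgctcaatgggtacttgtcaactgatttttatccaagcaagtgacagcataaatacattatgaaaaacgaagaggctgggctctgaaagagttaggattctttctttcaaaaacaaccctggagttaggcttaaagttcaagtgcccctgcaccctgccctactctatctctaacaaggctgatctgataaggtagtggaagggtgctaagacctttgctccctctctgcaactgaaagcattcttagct
Exact matches were sought on both strands for the CDX motif TTTATNG, the TATA box (TATAAA), the HNF4 core motif CAAAGTCCA, the STAT motif TTCNNNGAA, the cyclic AMP response element TGACGTCA, and the HNF4 direct repeat, HNF1 and ISRE motifs. The Aspa window held 1 CDX match, overlapped by a TATAAA match on the other strand, and 2 further TATAAA matches that overlap each other. The first pair begins at -174 from the start in RefSeq, and the others begin at -207 and -209. CDX is the binding motif of intestinal homeobox factors, and 10.91% of 32851 promoter windows held it, while 13.62% held TATAAA. The Otc window held none of the motifs, nor did that of Got1, and that of Prodh held 1 STAT match, as did 8.298% of all windows. A match describes letters in a window and says nothing of binding. GC content was 39.0% in the Aspa window and 44.33% in that of Otc, against a median of 52.67% over all windows.

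Got1, on chromosome 19 at 43499752 to 43524605, minus strand, is the cytosolic aspartate transaminase, which interconverts aspartate and oxaloacetate and takes part in the malate-aspartate shuttle. It measured 40.1, 45.7, 43.3 and 58.3 CPM in V1 of mice 1 to 4, and 76.5, 48.6, 57.5 and 83.1 CPM in V2. From V3 on its zone means stayed between 71.0 and 80.1 CPM. In V6 it measured 85.8, 79.8, 65.1 and 76.9 CPM. V1 was the lowest zone in 4 of 4 mice and does not overlap V6, and mouse 2 had nearly the same level in V1 and V2. The slope was 0.11 ± 0.030 (adjusted p = 0.0054). Without mouse 1 it was 0.095 with an adjusted p of 0.068, and scaled by total UMIs it was 0.043 with an adjusted p of 0.243. That scaling moves the median log2 difference of all genes between V1 and V6 by -0.34.

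Both transaminases rose, in unequal measure. The log2 ratio of Got1 to Gpt in a library fell by 0.19 per zone (permutation of zones within mice, 100000 resamples, 2 ratios computed, adjusted p = 8e-05), in 4 of 4 mice. Its mean went from -0.67 ± 0.43 in V1 to -1.65 ± 0.16 in V6 (SD, n = 4). Over V3 to V6, an interval chosen after seeing the data, the slope of the ratio was -0.037 (adjusted p = 0.463). Past the middle of the villus, V6 minus V4 was -0.07 ± 0.15 for Gpt and -0.03 ± 0.18 for Got1 on the log2 scale, and whether these differ from the -0.67 of Aspa was not tested.

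The citrulline pair did not move together. Otc, ornithine transcarbamylase, lies on chromosome X at 10252305 to 10321024, plus strand. It measured 121.7, 86.9, 102.7 and 120.1 CPM in V1 of mice 1 to 4, and 108.3, 113.4, 96.9 and 110.1 CPM in V6. All 24 values lay between 86.9 and 146.5 CPM, V1 and V6 overlap, and no step between neighbouring zones passed the test. The slope was -0.024 ± 0.023 (adjusted p = 0.405), and V6 minus V1 was -0.01 ± 0.13 on the log2 scale. Scaled by total UMIs, the slope was -0.090 with an adjusted p of 0.00257, a scaling under which the median slope of all genes was -0.071.

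Cps1, carbamoyl phosphate synthetase, lies on chromosome 1 at 67123026 to 67231259, plus strand. It measured 74.8, 72.6, 199.8 and 135.6 CPM in V1, and 44.4, 306.4, 121.8 and 80.4 CPM in V2 of mice 1 to 4. In V3 it measured 46.3, 48.0, 100.01 and 34.8 CPM, and in V6 20.7, 52.9, 59.4 and 46.9 CPM. The libraries of V6 all lay below those of V1. V2 of mouse 2 stood apart: it was the highest of the 24, while the other 3 mice were lower in V2 than in V1. The slope was -0.33 ± 0.089 (adjusted p = 0.00514) and each mouse fell, by between 0.22 and 0.33 per zone. Its slope passed the test in 28 of 28 fits that left out a mouse or a library. V6 minus V1 was -1.43 ± 0.53 (adjusted p = 0.0374), and it no longer passed without mouse 1, 3 or 4 (adjusted p of 0.0588, 0.146 and 0.114). Over V2 to V6 the slope was -0.34 with an adjusted p of 0.0645, and with the mouse block -0.33 with an adjusted p of 0.0383.

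The log2 ratio of Cps1 to Otc, which catalyse consecutive steps, fell by 0.28 per zone (permutation of zones within mice, adjusted p = 0.00133), in 4 of 4 mice by between 0.17 and 0.37. Its mean was 0.04 ± 0.70 in V1, -0.23 ± 1.34 in V2 and between -0.96 and -1.33 from V3 to V6. The zone means thus fell from V1 to V3, and whether the fall differed between lower and upper zones was not tested. Over V3 to V6, an interval chosen after seeing the data, the slope of the ratio was -0.087 (adjusted p = 0.463). The summed goblet markers moved over the same zones, and their part in the Cps1 trend was not tested apart from the fit with a goblet score and mouse block, where the slope of Cps1 was -0.49 (adjusted p = 0.427).

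Arg2 and Prodh feed ornithine and glutamate. Arg2 is the mitochondrial arginase, on chromosome 12 at 79130777 to 79156301, plus strand. It measured 242.4, 143.0, 230.7 and 260.4 CPM in V1 of mice 1 to 4, and 347.0, 237.8, 285.2 and 347.7 CPM in V2. In V6 it measured 308.4, 279.7, 253.9 and 284.1 CPM. V1 was the lowest zone in 4 of 4 mice although the ranges of V1 and V6 overlap, and V2 had the highest mean, 304 ± 53.2 CPM. Mouse 2 lay below the others in V1 and V2. The slope was 0.035 ± 0.028 (adjusted p = 0.313). V2 minus V1 was 0.47 ± 0.16 (adjusted p = 0.162), and 0.48 ± 0.12 with the mouse block (adjusted p = 0.00694). V4 minus V1 had an adjusted p of 0.0656 without and 0.00601 with the block (difference 0.41 ± 0.12), and V6 minus V1 of 0.0847 without and 0.0105 with it (difference 0.38 ± 0.12). Arg2 overlaps Vti1b and an antisense gene on the other strand, and whether counting used the strand is not given in the sources used here. Vti1b had a slope of 0.051 (adjusted p = 0.0436).

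Prodh, proline dehydrogenase, catalyses the first step of proline breakdown in mitochondria. It lies on chromosome 16 at 18060357 to 18090203, minus strand, and overlaps Dgcr6 on the plus strand, whose slope was 0.067 (adjusted p = 0.0367). It measured 53.2, 48.0, 43.3 and 66.0 CPM in V1 of mice 1 to 4. In V4 it measured 27.0, 49.6, 19.7 and 36.8 CPM, and in V6 24.9, 59.6, 28.3 and 49.5 CPM. Mouse 2 ended above where it began and the other 3 mice ended below. Mouse accounted for 51.2% of the variance of its log2 level and zone for 24.4%, the largest mouse share among the enzymes. Mouse nearly coincides with the index that libraries share, so differences between animals and between indexes cannot be told apart. The slope was -0.082 ± 0.049 (adjusted p = 0.183), and -0.086 ± 0.031 with the mouse block (adjusted p = 0.0174). Without mouse 2 it was -0.14 (adjusted p = 0.0494), and scaled by total UMIs -0.15 (adjusted p = 0.0234). V4 minus V1 was -0.67 ± 0.30 (adjusted p = 0.0811) and -0.69 ± 0.19 with the block (adjusted p = 0.00311). V6 minus V1 had adjusted p-values of 0.306 and, with the block, 0.044 (difference -0.43 ± 0.18).

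Ido1, indoleamine 2,3-dioxygenase, opens the kynurenine path and is known as an interferon-induced gene. It lies on chromosome 8 at 24584136 to 24597009, minus strand. It measured 368.9, 1018.5, 269.1 and 200.4 CPM in V1 of mice 1 to 4. In V2 it measured 70.8, 506.5, 150.6 and 247.2 CPM, and in V3 18.7, 164.4, 28.3 and 75.9 CPM. In V6 it measured 65.1, 187.3, 38.9 and 86.0 CPM. All V1 libraries lay above all V6 libraries, and mouse 2 was the highest in every zone. The mean of V1 was 464 ± 376 CPM (SD, n = 4). The slope was -0.51 ± 0.12 (adjusted p = 0.00233), and -0.48 ± 0.064 with the mouse block (adjusted p = 1.01e-05), and each mouse fell. V4 minus V1 was -2.57 ± 0.73 (adjusted p = 0.0103), and 0.0505 without mouse 3. V6 minus V1 was -2.31 ± 0.71 (adjusted p = 0.0157), and 0.0678 and 0.0522 without mouse 3 or 4.

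Ido1 and the goblet markers fell over the same zones. Per 1000 UMIs of the 11 goblet genes, Ido1 had 6.13 ± 3.61 UMIs in V1, 6.30 ± 4.01 in V2, 5.25 ± 3.19 in V3, 6.37 ± 2.89 in V4, 4.71 ± 0.524 in V5 and 8.21 ± 5.73 in V6 (SD, n = 4). These means lie between 4.71 and 8.21, and differences between them were not tested. The Ido1 level itself went from a mean of 464 CPM in V1 to 55.2 CPM in V5. Mouse 2 had the highest ratio in each zone, with a median over zones of 10.6 against 3.66 to 5.13 in the other mice. Across the 24 libraries the log2 level of Ido1 and the log2 sum of the goblet markers had r = 0.87, and r = 0.71 after zone means were removed, a description of libraries that share animals and depth. The other enzymes had r from -0.88 (Gpt) to 0.65 (Cps1) with the same sum. After zone means were removed their r ran from -0.46 (Otc) to 0.46 (Prodh). In a fit with a goblet score (the mean log2 level of the 11 goblet genes) and mouse block, the slope of Ido1 was 0.12 (adjusted p = 0.79). The goblet score moves with zone, so that fit has little left to separate them by. In it 0 enzymes were called higher and 0 lower. Over V3 to V6, where the goblet sum was level, the slope with the block was 0.11 (adjusted p = 0.653). Of 10 interferon response genes tested, 5 rose and 1 fell. Those that rose were Irf1, Irf7, Igtp, Ifit1 and Isg15, with slopes of 0.13 to 0.45. Gbp2, with 246 UMIs in all, fell from 14.02 CPM in V1 to 3.48 in V6 (slope -0.43, adjusted p = 0.00103). Zone means of the summed list went from 638.8 (V1) to 1188.3 (V4) and 1076.5 CPM (V6). This sum and Ido1 had r = -0.55 across the 24 libraries, and r = -0.09 after zone means were removed. The part of goblet cells in the Ido1 trend cannot be told apart from zone here, and that of the interferon response was not tested. Summed Paneth markers and Ido1 had r = -0.11 over the same libraries.

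**Figure D2:**
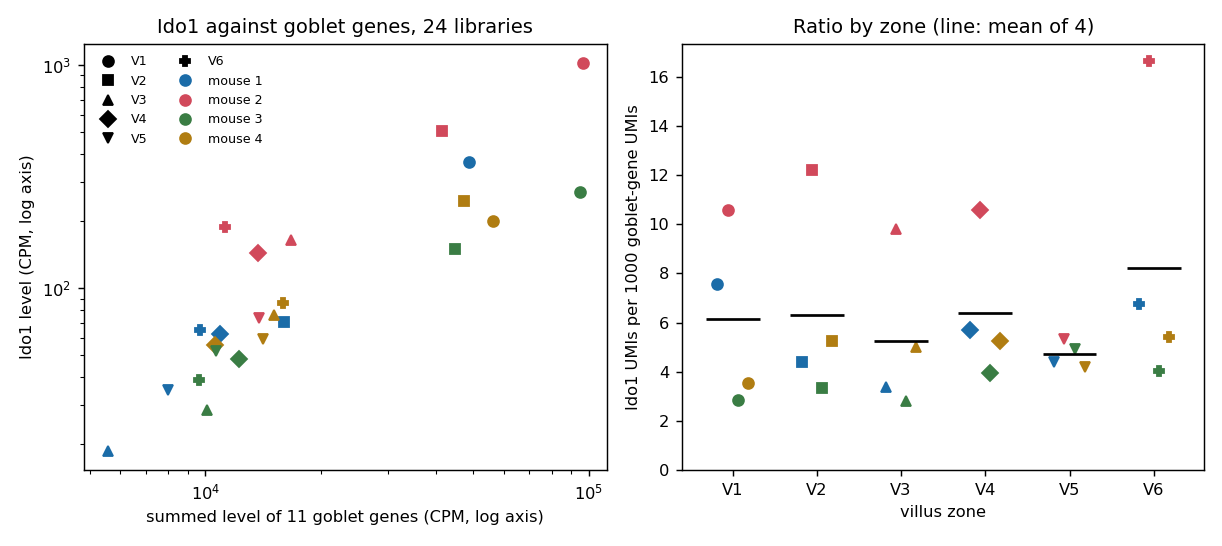
Left, Ido1 level against the summed level of 11 goblet genes in 24 libraries (CPM, log axes). Right, Ido1 UMIs per 1000 goblet-gene UMIs by zone, with a line at the mean of 4 mice. Shapes mark zones and colours mice, and the zone means on the right lie between 4.71 and 8.21 with mouse 2 on top.

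The enzymes called on the slope and for V6 minus V1 stand here beside the share of all genes. On the slope 3 of 8 rose, where 22.1% of all tested genes rose, and 2 of 8 fell, where 22.8% did. With the mouse block 3 rose and 3 fell, against 27.6% and 27.8%. For V6 minus V1 it was 3 higher and 2 lower, against 20.2% and 18.6%, and with the block 4 and 3, against 26.7% and 24.7%. The V1 and V6 ranges of the 5 enzymes called without the block (Aspa, Gpt, Got1, Cps1 and Ido1) do not overlap. These ranges come from the same libraries as the calls, and the share of all genes without overlap was not computed. The median slope of the 8 was 0.0057 against -0.0047 over all genes. On the slope and for V6 minus V1, counts this small do not set these enzymes apart from the rest. Counts for the other contrasts are given below beside their own shares, and whether they differ from those shares was not tested.

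The slopes were also fitted without the lowest zones. Over V2 to V6 Gpt kept its call, while the slopes of Aspa (0.096, adjusted p = 0.0822), Got1 (0.024, adjusted p = 0.736) and Ido1 (-0.32, adjusted p = 0.192) missed the threshold. With the mouse block over V2 to V6, a fit chosen after seeing the data, Aspa (0.098, adjusted p = 0.0158) and Ido1 (-0.26, adjusted p = 0.0198) passed and Got1 did not (adjusted p = 0.626). Over V3 to V6 with the mouse block, the slope of Gpt was 0.0095 (adjusted p = 0.937). In the fit with a goblet score and mouse block the slopes were 0.27 for Gpt (adjusted p = 0.0598), 0.24 for Aspa (adjusted p = 0.125) and 0.067 for Got1 (adjusted p = 0.771), and calls over all genes dropped to 177 rising and 40 falling.

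More enzymes passed the test for V4 minus V1 than for V6 minus V4. These intervals span unequal numbers of zones, and whether the changes in lower and upper zones differ was not tested. For V4 minus V1, Aspa, Gpt and Got1 were higher (3 of 8, background 19%) and Ido1 lower (1 of 8, background 17.5%). Scaled by total UMIs, Got1 lost its call for V4 minus V1 (0.43, adjusted p = 0.0633) and for V6 minus V1 (0.37, adjusted p = 0.0947), and without mouse 1 it lost the latter (0.57, adjusted p = 0.0762). With the mouse block these counts were 4 and 2, against 25.6% and 24.8%. For V2 minus V1, Gpt (1.02 ± 0.15, adjusted p = 0.0012) and Aspa (1.02 ± 0.18, adjusted p = 0.00402) passed, 2 of 8 against 1.43% of all genes. With the block Got1 (0.51 ± 0.16, adjusted p = 0.0233) and Arg2 joined them, 4 of 8 against 9.2%. Without mouse 4 the p of Gpt was 0.0524 and that of Aspa 0.0524, and without mouse 1 that of Aspa was 0.07. For V3 minus V2, Aspa was higher (0.90 ± 0.17, adjusted p = 0.0208), 1 of 8 against 0.172%, a call lost without any 1 of the mice (adjusted p of 0.0538 to 0.273). With the block Gpt (0.61 ± 0.13, adjusted p = 0.00322) was also higher, 2 of 8 against 3%, and Ido1 lower (-1.82 ± 0.39, adjusted p = 0.0111), 1 of 8 against 1.79%.

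Above V3, contrasts between 2 zones called few genes. The slope over V3 to V6 with the block called 587 rising and 75 falling genes of 8643, and of the enzymes Aspa alone, which fell. For V6 minus V4, 0 of 8 passed in edgeR without the block (1 at an unadjusted p under 0.05, Aspa), against 0.45% of all genes, and with it Aspa was lower, 1 of 8 against 0.0643%. For V4 minus V3 0 of 8 passed, against 0.0643%, and 0 of 8 with the block, against 2.12%. At an unadjusted p under 0.05 these were 0 and 1 enzymes, the latter Aspa. For V5 minus V4 0 of 8 passed without or with the block, where 0% of genes did in either, and Aspa had an unadjusted p under 0.05 in both. For V6 minus V5 0 of 8 passed, against 0.268% without and 1.5% with the block, with 0 at an unadjusted p under 0.05. Curvature, which is negative for a gene highest in the middle zones or one that rises and levels off, was negative for Aspa (-1.27 ± 0.13, adjusted p = 1.06e-06) and Gpt (-0.85 ± 0.11, adjusted p = 3.45e-05), 2 of 8 against 4.57%. With the block Got1 and Arg2 were added, 4 of 8 against 12.3%, and Ido1 was positive (1.49 ± 0.27, adjusted p = 0.00088), 1 of 8 against 9.55%.

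**Figure D3:**
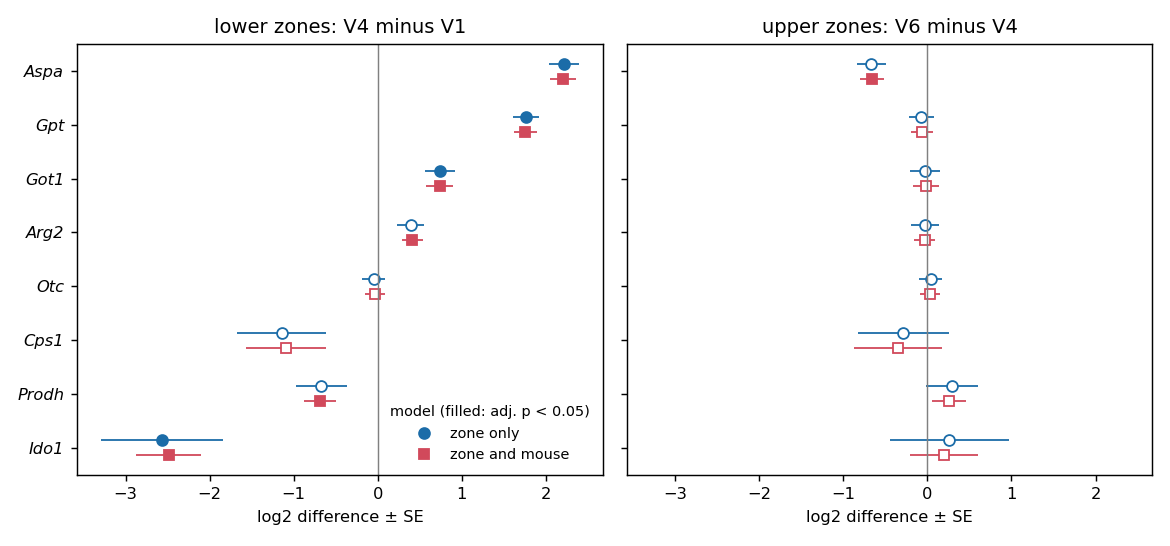
Log2 difference ± SE of each enzyme for V4 minus V1 (left) and V6 minus V4 (right), in the model of zones alone (circles) and of zones and mouse (squares), with filled symbols at an adjusted p under 0.05. Differences on the left run from -2.57 for Ido1 to 2.21 for Aspa, and on the right Aspa is the only filled one, at -0.66 with the mouse block.

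The wider pathways were read from 7 lists of related genes, by counts on the slope. These counts include the enzymes above and stand beside the 22.1% of all tested genes that rose, the 22.8% that fell and the median slope of -0.0047. Their counts with the mouse block stand beside the 27.6% that rose and the 27.8% that fell with it. The goblet and enterocyte markers moved over the same zones, and their part in these counts was not tested. N-acyl amino acid turnover, the list that holds Aspa, had 5 of 7 tested genes rising, 0 falling and a median slope of 0.19. Naaladl1, a brush-border peptidase family member, went from 114 ± 37.2 CPM in V1 to 369 ± 32.6 in V6 (slope 0.28, adjusted p = 7.26e-06). Acy3, which deacylates N-acyl aromatic amino acids, went from 17.1 ± 2.32 to 57.1 ± 7.07 CPM (slope 0.32, adjusted p = 4.22e-08). Cndp2, a cytosolic dipeptidase, went from 286 ± 82.0 to 625 ± 60.1 CPM, and Apeh, which removes acylated residues from peptides, from 50.5 ± 5.75 to 72.9 ± 4.69 CPM. With the mouse block 6 of the 7 rose.

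In the list of transamination and glutamate, 2 of 9 tested genes rose, Gpt and Got1, and 1 fell (2 and 4 with the block). The gene that fell was Glul, glutamine synthetase, from 18.2 ± 6.64 CPM in V1 to 6.78 ± 2.09 in V6 (slope -0.30, adjusted p = 0.00147). Glud1, glutamate dehydrogenase, measured 105 ± 24.3 and 146 ± 62.6 CPM and did not pass (slope 0.06, adjusted p = 0.411). In the list of the urea cycle, ornithine and proline, 2 of 13 rose and 5 fell (3 and 6 with the block), with a median slope of -0.046, and Cps1 was among those that fell. Odc1, which turns ornithine into putrescine, rose from 13.2 ± 2.27 to 28.3 ± 10.6 CPM. On the side of proline and ornithine synthesis, Aldh18a1 fell from 100 ± 12.2 to 57.3 ± 14.95 CPM. Ddah1, which breaks down methylated arginines, fell from 394 ± 61.3 to 171 ± 27.0 CPM (slope -0.21, adjusted p = 0.000524).

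The tryptophan list split. Beside Ido1, Wars, the tryptophanyl-tRNA synthetase, fell from 134 ± 47.9 to 27.9 ± 4.46 CPM (slope -0.40, adjusted p = 8.63e-08). Tph1, which starts serotonin synthesis in enterochromaffin cells, rose from 5.15 ± 1.02 to 128 ± 59.5 CPM (slope 0.92, adjusted p = 8.38e-08). It is 1 of the enteroendocrine markers, whose sum was 2116 ± 327 CPM at the bottom (V1), 624 ± 289 in V4 and 5807 ± 1356 at the tip, with 5 of 7 rising and 1 falling. In all 1 of 6 rose and 2 fell (3 and 2 with the block). Maoa, a monoamine oxidase, measured 241 ± 44.5 and 371 ± 146 CPM (adjusted p = 0.0917, and 0.0215 with the block).

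In 2 of the breakdown lists of other amino acids more genes fell than rose. For branched-chain amino acids 0 of 18 rose and 6 fell (0 and 6 with the block), with a median slope of -0.083. Of all tested genes 22.1% rose and 22.8% fell, and 27.6% and 27.8% with the block. Whether the lists differ from these shares was not tested. Mcee, an epimerase of the propionate path, fell from 36.7 ± 4.43 to 19.7 ± 2.04 CPM, Bckdk, the kinase that inhibits branched-chain ketoacid dehydrogenase, from 68.2 ± 11.3 to 41.6 ± 9.49 CPM, Pcca from 18.8 ± 1.96 to 10.0 ± 3.55 CPM, and Ivd from 19.6 ± 7.93 to 6.69 ± 3.16 CPM. Pccb measured 159 ± 73.5 and 173 ± 67.8 CPM (adjusted p = 0.846). For serine, glycine, threonine and sulfur amino acids 1 of 16 rose and 8 fell (1 and 8 with the block), with a median slope of -0.11. Ethe1 and Suox, of sulfide and sulfite oxidation, fell from 50.7 ± 3.91 to 31.5 ± 4.58 CPM and from 38.3 ± 16.2 to 11.5 ± 2.51 CPM. Mat2a and Ahcy, of the methionine cycle, fell from 63.4 ± 10.5 to 33.7 ± 2.32 CPM and from 36.1 ± 5.78 to 20.1 ± 2.36 CPM. Sdsl measured 124 ± 70.0 and 103 ± 97.0 CPM and did not pass (adjusted p = 0.823). For phenylalanine, tyrosine, histidine and lysine 0 of 3 tested genes passed, and 2 fell with the block. Among them Qdpr measured 86.1 ± 7.50 and 70.3 ± 7.62 CPM (adjusted p = 0.0803, and 0.0113 with the block).

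**Figure D4:**
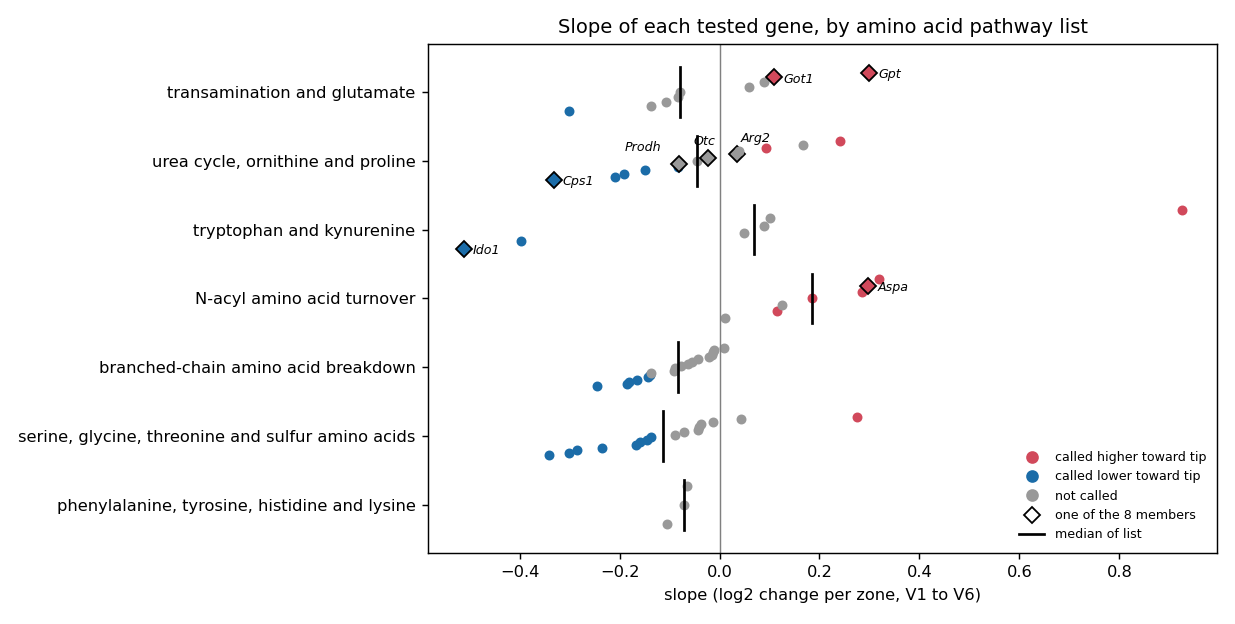
Slope (log2 change per zone) of every tested gene in the 7 lists, coloured by call, with diamonds for the 8 enzymes and a bar at each list's median. The N-acyl list has its median at 0.19, and the branched-chain and serine lists at -0.083 and -0.11.

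The genes most like each enzyme were sought among the 2493 genes that averaged 50 CPM or more, by Pearson r of log2(CPM + 1) over the 24 libraries, as a description of libraries that share mice and zones. Mxi1 was nearest to Gpt (r = 0.972), followed by Ggt1, which cleaves gamma-glutamyl peptides (0.971), and Cyp4v3 (0.969). Mdh1, the cytosolic malate dehydrogenase, was nearest to Aspa (0.941), followed by Dnase1 (0.939) and Stom (0.937). Aco1, the cytosolic aconitase (0.867), Myo1a, a brush-border myosin (0.853), and Slc13a2, a dicarboxylate carrier (0.83), were nearest to Got1. The neighbours of the trio that rose also rose, each with an adjusted p under 0.05. They were picked by likeness to a riser in these same libraries, so their rise is no separate support.

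Ido1 had as its nearest genes the goblet markers Fcgbp (0.926) and Clca1 (0.916), then Selm (0.888). Nearest to Cps1 was Dmbt1, a secreted mucosal glycoprotein (0.906), which like Cps1 was highest in V2 of mouse 2 among the V2 libraries, at 768 CPM against 123 to 318 in the other 3. Mlec (0.777) and Slc39a11 (0.761) followed. For Arg2 these were Hagh (0.898), Fam132a (0.861) and Fahd1 (0.860), for Prodh Gsr (0.884), Gmds (0.844) and Ndufa9 (0.822), and for Otc Kxd1 (0.789), Cisd3 (0.776) and Nfe2l2 (0.717). By Spearman rho the top gene stayed the same for Aspa and Otc only.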

How the data were processed

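RNA was measured in 24 bulk libraries of sorted jejunal epithelium, 4 mice in each of 6 zones, grouped by the labels. The authors deposited raw UMI counts per gene. Per the labels' protocols the libraries were mcSCRB-seq of polyadenylated RNA. Per the submitters' processing notes, bcl2fastq 2.15.0.4 and build GRCm38 were used, while for the aligner, annotation release and strand setting the sources used here give nothing.

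Counts were tested in R 4.3.3 with edgeR 4.0.16: filterByExpr by zone (minimum count 10, minimum total 15), TMM, and a robust quasi-likelihood fit of 6 zone means (18 residual degrees of freedom, 15 with mouse as a block). P-values were adjusted by Benjamini-Hochberg over 9328 genes within each contrast and called under 0.05. Log2 levels for ratios and likeness used a pseudocount of 1 CPM. Ratios were tested by two-sided permutation, and those with Oat were not computed. DESeq2 1.42.0 and limma 3.58.1 gave alternatives, and motifs and figures used Python with matplotlib 3.10.9, pandas 2.3.3 and numpy 2.4.6. The fit was tested on simulated data. Gene positions came from GENCODE M21 (17741 of 17811 identifiers matched).

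By the labels, the mouse number marks the same animal. Deviations from zone means correlated within mice with a mean r of 0.418 (lowest 0.182, over 0.1 in 60 of 60 pairs). A shared index put V1 of mouse 2 with the 6 libraries of mouse 1, and otherwise mouse and index are the same. The correlation within mice therefore cannot tell a shared animal from a shared index. No 2 libraries of the same zone were copies (36 pairs, chi-square per degree of freedom 3.35 to 27.5). The range of 806541 to 2266261 UMIs limits precision for genes of few UMIs: the 8 enzymes had from 24 (Prodh) to 1781 (Ido1) UMIs in a library.

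The enzymes and lists were chosen with earlier results of these data known. Named genes were the enzymes, of each list up to 4 other genes with the smallest adjusted p among those called and the other gene with the highest mean CPM, and the 3 genes of highest r to each enzyme. Not every gene that this rule selects is reported here. Gbp2, the interferon response genes that rose, Vti1b and Dgcr6 were named outside that rule after their values were seen. Marker lists for tuft cells, leukocytes, stem cells and stroma were also summed. Alternatives were the mouse block, DESeq2 size factors, total UMI scaling, no filter, DESeq2, limma-voom, fewer zones, a goblet score and leaving out mice or libraries.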

Additional observations from a re-analysis of the deposited data

Results flagged for a closer look

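Of 48 groups of 4 libraries (8 enzymes in 6 zones), 3 held a library far from the other 3, where chance gives about 1 in 20. Aspa in V3 of mouse 4 measured 173.9 CPM, against 151.8 to 155.1 in the others. Cps1 in V4 of mouse 4 measured 91.22 CPM, against 40.63 to 49.27. Ido1 in V4 of mouse 2 measured 144.6 CPM, against 48.45 to 62.29, and mouse 2 was the highest in Ido1 in each of the 6 zones.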

How the results depend on the processing

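The mouse block ended no call. It moved counts of enzymes for V4 minus V1 lower to 2, V6 minus V4 lower to 1, V2 minus V1 higher to 4, V3 minus V2 higher to 2 and lower to 1, and curvature to 1 positive and 4 negative. DESeq2 size factors, DESeq2, limma-voom and no filter on low counts kept the side of the threshold of each enzyme's slope.

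Scaling by total UMIs gave 1217 genes with a rising and 3720 with a falling slope, 4 enzymes falling on the slope and 4 lower for V4 minus V1. Under it the slope of Arg2 was -0.031 and the curvature of Otc 0.0040, both of the opposite sign. Over V2 to V6 the slope calls were 862 and 256, of enzymes 1 and 0, and Arg2 was at -0.034 (with the block, a fit chosen after seeing the data, 1191 genes and 2 enzymes fell, 2 enzymes rose, and Arg2 was at -0.033). Over V3 to V6 with the block, 587 and 75 genes and 0 and 1 enzymes were called, and Aspa (-0.15), Got1 (-0.028), Arg2 (-0.027), Prodh (0.017) and Ido1 (0.11) changed sign. With a goblet score and the block, 177 and 40 genes and 0 and 0 enzymes were called, and Ido1 was at 0.12. The goblet score moves with zone, so this fit has little left to separate them by. Over V3 to V6, chosen after seeing the data, the ratio slopes were -0.087 and -0.037 with an adjusted p of 0.463 each. The causes were not tested.

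Leaving out each mouse or library gave 1510 to 2128 rising and 1293 to 2230 falling genes, and 2 to 3 rising and 2 to 3 falling enzymes. Leaving out each mouse gave enzymes lower for V6 minus V1 of 0 to 2, for V4 minus V1 of 0 to 2, higher for V2 minus V1 of 0 to 2, for V3 minus V2 of 0 to 0, and positive curvature of 0 to 1. Signs that turned then were of small differences: Otc for V6 minus V1 (-0.16 to 0.038), V4 minus V1 (-0.18 to 0.065) and V6 minus V4 (-0.027 to 0.083), Gpt (-0.17 to 0.075), Got1 (-0.11 to 0.034) and Arg2 (-0.071 to 0.0036) for V6 minus V4, Prodh for V2 minus V1 (-0.27 to 0.038) and Arg2 for V3 minus V2 (-0.14 to 0.013). Cps1 for V2 minus V1 was 0.19 with all mice, -0.78 to 0.61 over fits without a mouse (lowest without mouse 2, also -0.78 with the block) and -0.58 without its V2 library. In fits chosen after seeing the data, that library's removal gave 2 enzymes lower for V4 minus V1, 0 higher for V3 minus V2 and 1 with positive curvature. The block without mouse 2 gave 4 enzymes falling on the slope, 3 lower for V4 minus V1, 1 lower for V6 minus V4, 4 higher for V2 minus V1, 2 higher for V3 minus V2 and 1 with positive curvature, with V6 minus V4 of Got1 at 0.041. Ratios with Oat were not run.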

Other observations

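Other cell type markers moved along the villus too. Summed leukocyte markers averaged 29.1 ± 25.5 CPM (SD, n = 4) at the bottom (V1) and 267 ± 19.6 CPM at the tip (V6), and 5 of 5 tested genes rose. Summed tuft cell markers averaged 8.16 ± 5.83 and 26.7 ± 13.3 CPM, with 1 of 3 tested genes rising. Summed stem and crypt markers averaged 111 ± 35.0 CPM in V1 and 61.2 ± 22.6 CPM in V4, with 3 of 6 falling. Stromal markers stayed between 4.89 and 11.4 CPM in the zone means, and 0 of them had enough counts to be tested.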
